A study of Oryza sativa with 4 samples.

Results

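Probes for genes of 4 hormone pathways were chosen on a rice microarray by words in their deposited descriptions. The pathways were gibberellin, ethylene, abscisic acid (ABA) and jasmonate. No measured value was used in the choice, but earlier results of these data were known. Of 21495 probes, 70 matched and are called members below. Probes whose descriptions spoke of transporters, MYB, AP2, leucine zipper, zinc finger or cytochrome P450 proteins were to be left out, which removed 0 members. Roles were read from words in the descriptions alone. By role, 10 members were placed in gibberellin metabolism, 6 in gibberellin response, 11 in ethylene synthesis and 9 in ethylene perception and signalling. A further 10 were ABA-related, 17 were placed in jasmonate synthesis and 7 in jasmonate response. The last group includes 2 members described as JMT, an enzyme that methylates jasmonic acid. The word ABA was read on its own, since its letters also occur in the names of tobacco and broad bean, which would have added 265 probes. No member was a brassinosteroid gene.

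Excised leaves of etiolated rice seedlings, raised in total darkness (dark below), and of light-grown seedlings (light below), raised under a 12 h photoperiod, were set on 120 mM nitrate for 2 h, or on water as the control. All seedlings belonged to the indica variety Panvel, were 8 to 10 days old and had been raised at 25 °C without nutrients, on distilled water. The study's methods give a shorter treatment and a higher growth temperature than these labels. RNA of nitrate-treated and of water-treated leaves was hybridised to the same 2-colour array, with 2 arrays for etiolated and 2 for light-grown leaves, which the study describes as biological replicates with flipped dyes. All 4 arrays lay on 1 slide. Dyes are given in the labels for both channels, but the treatment in each is not, and channel 2 was read as nitrate, which is the direction of the signed changes in the study's supplementary tables. With that reading, 2 of 4 nitrate reductase probes rose with nitrate in etiolated leaves and 3 of 4 in light-grown leaves. As a check of the growth labels, 16 probes for chlorophyll-binding light-harvesting proteins were compared between etiolated and light-grown leaves on water. In etiolated leaves 13 were lower and 1 was higher, against 14.4% and 14.6% of all probes. Of 2 probes matched by words for the small subunit of rubisco, 1 of them for its methyltransferase, 0 were called. In whole leaves, fewer cells of a type and less RNA per cell cannot be told apart.

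Gibberellins are growth hormones that drive stem and leaf elongation. GA 20-oxidases and GA 3-oxidases make the active forms and GA 2-oxidases inactivate them. Ethylene is made from methionine in a path whose last steps are catalysed by ACC synthase and ACC oxidase, and it is perceived by membrane receptors that hold a response pathway in check until the hormone binds. ABA is the hormone of water deficit and dormancy. Jasmonates are made from fatty acids of plastid membranes by lipoxygenase, allene oxide synthase, allene oxide cyclase and 12-oxophytodienoate reductase, and act in defence against insects and wounding. The descriptions name the closest known sequence, often of another species, so that 70 members from 70 rice cDNA accessions carried only 45 different descriptions. Members are therefore given by probe and accession, and several members of 1 description need not be the same gene.

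The value given is the log2 ratio of nitrate over water on an array, so that 1 is a doubling and 0 no difference, with the SE of the fit of limma, a linear model over all probes with shared variance. A member was called when the absolute log2 ratio was at least 1 and the unadjusted p at most 0.05, the study's thresholds, and the Benjamini-Hochberg adjusted p is given beside it. In etiolated leaves 2 of 70 members were called, or 2.86%, against 3.53% of all probes. In this count 1 was up and 1 down, against 1.81% and 1.72% of all probes. In light-grown leaves 13 of 70 were called, or 18.6%, against 3.74% of all probes. Here 8 were up and 5 down, against 2.28% and 1.46% of all probes. After adjustment 0 members passed in etiolated leaves, against 0.223% of all probes. In light-grown leaves 1 passed, against 0.312% of all probes. At any fold, 15 members had an unadjusted p of at most 0.05 in etiolated and 22 in light-grown leaves. The share of all probes at any fold was not computed. Not all members gave a signal. Feature Extraction, the scanner software, flags whether a spot is well above background, and in at least 1 channel on both arrays 55 members were so in etiolated and 60 in light-grown leaves. Under the normexp background correction, which shrinks the ratios of dim spots, 0 members were called in etiolated and 5 in light-grown leaves.

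The difference between the responses, dark minus light, was tested directly. It was called for 15 of 70 members, 21.4% against 6.51% of all probes, with 12 members lower and 3 higher in dark, against 3.54% and 2.98% of all probes. Of the members and of all probes, 0 passed after adjustment by limma. Among the members the smallest adjusted p by limma was 0.155. At any fold 20 members had an unadjusted p of at most 0.05, for which the share of all probes was not computed. Of the 15, 11 were above background in both conditions, 9 lower and 2 higher in dark. The other 4 were dim in at least 1 condition, A_71_P126555 and A_71_P113029 in both. A ratio near 0 in such a condition is no measure of their response. On both dark arrays 25 members had a log2 ratio below both light arrays, against 24% of all probes, and 11 had one above both, against 22.4% of all probes.

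**Figure D1:**
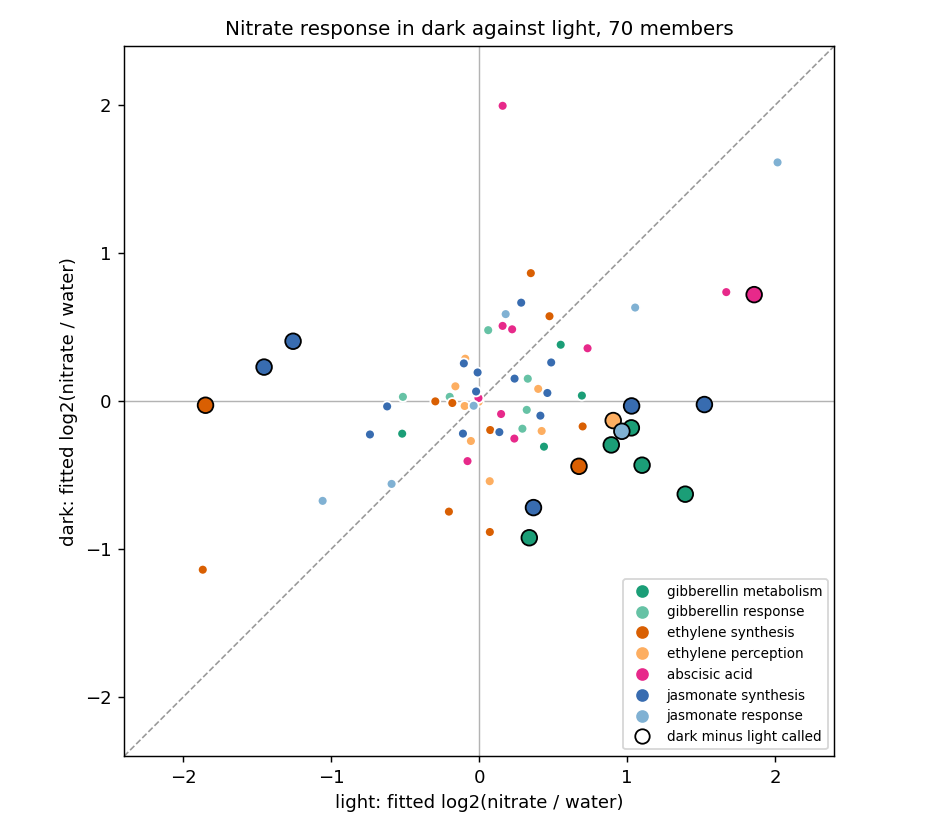
Fitted log2 ratio of nitrate over water in dark (vertical) against light (horizontal) for the 70 members, coloured by role, with the dashed line marking equal responses. Large points with black rims are the 15 members called for the difference, and 12 of them lie below the line, among them 5 of gibberellin metabolism.

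Gibberellin metabolism was the role with the highest share called for the difference. In light-grown leaves 3 of 10 members rose with nitrate and 0 fell, against 2.28% and 1.46% of all probes. In etiolated leaves 0 of 10 were called, against 3.53% of all probes. The difference was called for 5 of 10, all with a lower ratio in dark than in light, against 3.54% of all probes. All 10 were above background in both conditions. The ratio was above 0 on both light arrays in 8 members and below 0 on both in 1. On both dark arrays it was below 0 in 6 and above 0 in 1. Over all probes, 58.8% had the same sign, either way, on both light arrays and 61.4% on both dark arrays. In 7 members the ratio was lower on both dark arrays than on both light arrays, against the 24% of all probes given above. The median log2 ratio over the 10 was -0.26 in dark and 0.62 in light, against -0.01 in each over all probes.

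The widest difference was in A_71_P102524 (AK101713), described as OsGA2ox3, a GA 2-oxidase, which inactivates gibberellins. Its log2 ratios were -0.47 and -0.79 in dark and 1.64 and 1.14 in light. The arrays of the 2 conditions lay on opposite sides of 0. The fitted ratio was -0.63 ± 0.19 in dark and 1.39 ± 0.19 in light (SE, n = 2 arrays each), a rise of 2.63-fold in light (adjusted p = 0.09), and the difference was -2.02 ± 0.27 (adjusted p = 0.159). As normalized intensities, etiolated leaves gave 1635 and 1442 with nitrate and 2260 and 2495 with water, and light-grown leaves gave 2159 and 1804 with nitrate and 692 and 817 with water. The nitrate channel lay below the water channel on both dark arrays and above it on both light arrays, although the dark ratio was not called. With nitrate, etiolated and light-grown leaves differed by -0.36 on the log2 scale, which was not called either.

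The 3 other members described as OsGA2ox3, from other accessions, were mixed, and 1 of them was called for the difference. A_71_P114726 (AK107211) had -0.71 and -1.13 in dark and 0.55 and 0.12 in light, and its difference of -1.26 ± 0.27 was called (adjusted p = 0.22). Its dark ratio of -0.92 did not reach the threshold, though it would without dark replicate 1 (-1.13). A_71_P100247 (AK108802) had 0.10 and -0.03 in dark and 0.43 and 0.96 in light, and A_71_P114160 (AK063973) had 0.04 and -0.48 in dark and -0.10 and -0.94 in light. Neither was called.

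Of 5 members described as GA 20-oxidases or C-20 oxidases, which act on the synthesis side, 3 were called for the difference, each with the same sign as A_71_P102524. A_71_P112485 (AK107142), a C-20 oxidase, had -0.50 and -0.36 in dark and 0.88 and 1.32 in light. A_71_P113264 (AK070306) had -0.27 and -0.09 in dark and 1.20 and 0.86 in light. Both rose in light, to 1.10 ± 0.17 (adjusted p = 0.0983) and 1.03 ± 0.16 (adjusted p = 0.0981), and their differences between dark and light were -1.53 ± 0.24 and -1.21 ± 0.22. The first call in light was lost without light replicate 2 (0.88) and the second without light replicate 1 (0.86). A_71_P113263 (AK105597), with the same description as A_71_P113264, had -0.56 and -0.03 in dark and 1.04 and 0.75 in light. Its difference of -1.19 ± 0.27 was called, but not without light replicate 1 (-1.05) or dark replicate 1 (-0.92). These 3 probes were dim, with normalized intensities of at most 366 on any array, and under the normexp background correction their differences were -0.66, -0.71 and -0.77 and were not called, and the light ratios of A_71_P112485 and A_71_P113264 were 0.58 and 0.62 and not called either. The remaining 20-oxidases, A_71_P113260 (AK110729) and A_71_P109540 (AK061017), had differences of -0.75 and 0.10 and were called in no nitrate comparison, nor was A_71_P107279 (AK072410), described as GA 3-beta-hydroxylase of lettuce.

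**Figure D2:**
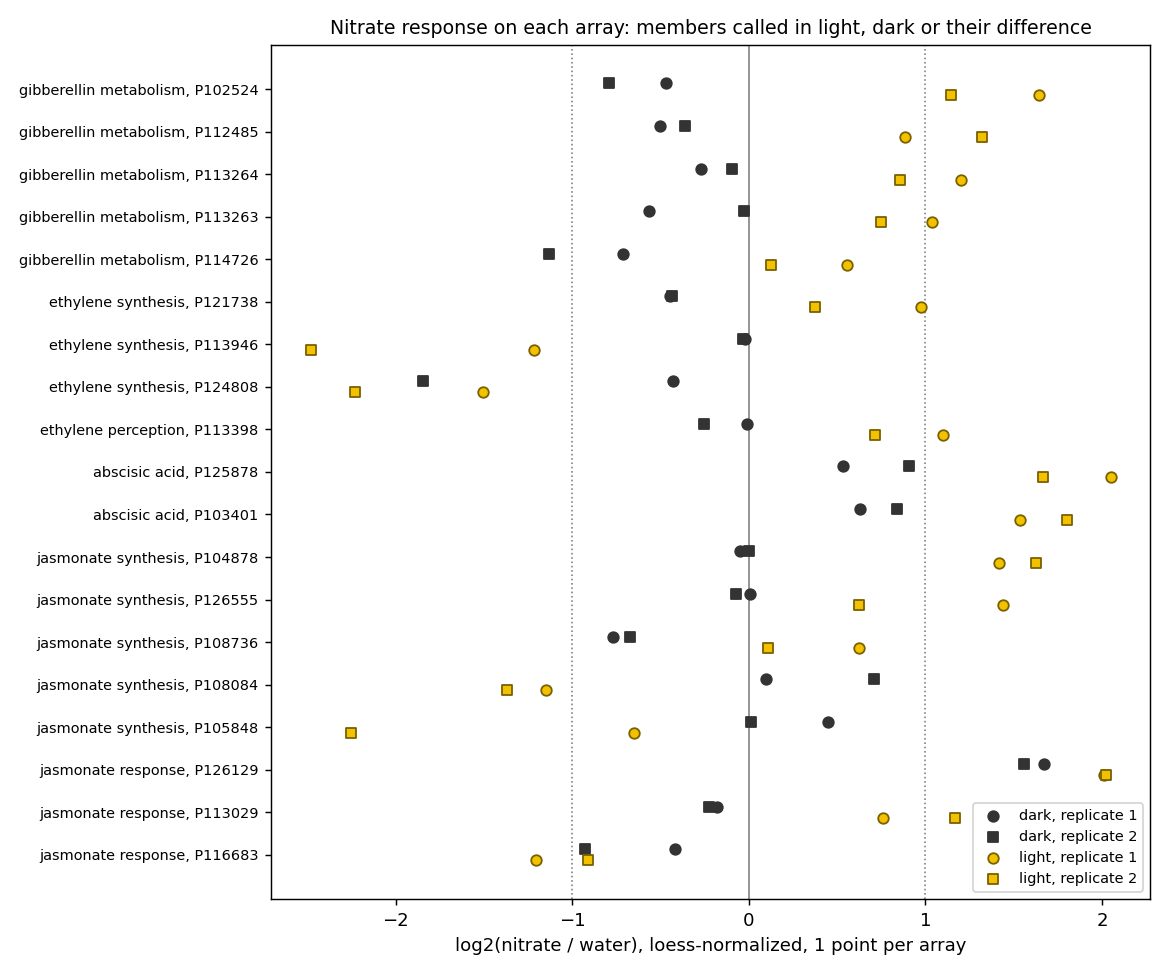
Log2 ratio of nitrate over water on each of the 4 arrays for the 19 members called in dark, in light or for the difference, by role and probe. In the 5 members of gibberellin metabolism every dark point lies below 0 and every light point above it, while A_71_P126129 lies above 1 on all 4 arrays.

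The 6 gibberellin response members were called in no nitrate comparison, with fitted ratios between -0.19 and 0.48 in dark and between -0.52 and 0.33 in light. They included CIGR1 and GIGR2, rice GRAS-family proteins induced by chitin and gibberellin, a homologue of SPY, a negative regulator of gibberellin action, and gip3, a gibberellin-induced protein of petunia. Of the other pathway genes, taken by description, 1 of 4 probes for ent-kaurene oxidase and copalyl diphosphate synthase was called. It was called in dark and for the difference, against 3.53% and 6.51% of all probes. This was A_71_P106185 (AK072928), described as a copalyl diphosphate synthase, an enzyme at the entry of diterpene and gibberellin synthesis, with 2.34 and 2.22 in dark and 0.14 and -0.06 in light. It rose 4.85-fold in dark (adjusted p = 0.0475), and its difference of 2.24 was opposite in sign to those of the 5 gibberellin metabolism members called.

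In ethylene synthesis, 1 of 11 members fell in dark and 2 of 11 in light, against 1.72% and 1.46% of all probes. All were ACC oxidases, which form ethylene from its precursor ACC. A_71_P113946 (AK061064), described as ACO1 of sorghum, had -0.02 and -0.03 in dark and -1.22 and -2.48 in light. It was near 0 on both dark arrays and low on both light arrays. The fitted ratio in light was -1.85 ± 0.33 (adjusted p = 0.118), and it was -1.22 without light replicate 2. The difference of 1.82 ± 0.47 was called (adjusted p = 0.241), but not without dark replicate 1 or dark replicate 2 (1.82 each), and it was 1.19 without light replicate 2. A_71_P124808 (AK105491), with the same description, had -0.43 and -1.85 in dark and -1.50 and -2.23 in light, all below 0. It was called in both conditions, at -1.14 ± 0.41 and -1.87 ± 0.41, but its dark signal was at background in both channels, and the dark ratio was -0.43 and not called without dark replicate 2, and -1.85 without dark replicate 1. The dark call was also lost without light replicate 1 or light replicate 2 (-1.14 each), and the light call without light replicate 2 (-1.50). Under the normexp background correction the ratios were -0.07 in dark and -0.49 in light, and neither was called.

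Some other ACC oxidases, though not all, had ratios above 0 on both light arrays, none past the fold threshold. A_71_P121738 (AK058296), a rice ACC oxidase among the brightest members, had -0.45 and -0.44 in dark and 0.98 and 0.37 in light. Its difference of -1.12 ± 0.27 was called (adjusted p = 0.234), but not without light replicate 1 (-0.81), dark replicate 1 (-1.11) or dark replicate 2 (-1.12). It was saturated in 2 of its channels, which was not tested as a source of this difference. A_71_P119250 (AK059964), with the same description, had -0.47 and 0.12 in dark and 0.85 and 0.55 in light. A_71_P121959 (AK065039), described as ACO1 of rice, had 0.93 and 0.80 in dark and 0.46 and 0.23 in light. A_71_P103038 (AK102472), described as an Arabidopsis ACC oxidase, had -1.15 and -0.62 in dark and 0.07 and 0.08 in light, and passed the dark threshold only without dark replicate 2 (-1.15). The 3 ACC synthases were called in no nitrate comparison. A_71_P104374 (AK066805) lost its light replicate 1 to outlier flags, so that its light ratio of 0.07 came from 1 array, and A_71_P104375 (AK071557), with the same description, had fitted ratios of -0.01 in dark and -0.18 in light.

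Of the 9 members of ethylene perception and signalling, 0 were called in dark and 0 in light, against 3.53% and 3.74% of all probes. A_71_P113398 (AK111696), described as the rice receptor ERS2, had -0.01 and -0.25 in dark and 1.10 and 0.71 in light. Both dark arrays lay below both light arrays, as in 24% of all probes. Its light ratio of 0.91 ± 0.17 fell short of the threshold, and the difference of -1.04 ± 0.24 was called (adjusted p = 0.225), but not without light replicate 1 (-0.84) or dark replicate 2 (-0.91), nor under the normexp background correction (-0.84). The other receptors and the EIN3-like factors OsEIL1 and OsEIL2, which carry the ethylene signal to target genes, had fitted ratios between -0.54 and 0.29 in dark and between -0.16 and 0.42 in light. Of 12 further probes for EIN2, EIN3-like and ethylene-responsive genes, 0 were called in dark, against 3.53% of all probes. In light 1 rose, against 2.28% of all probes.

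**Figure D3:**
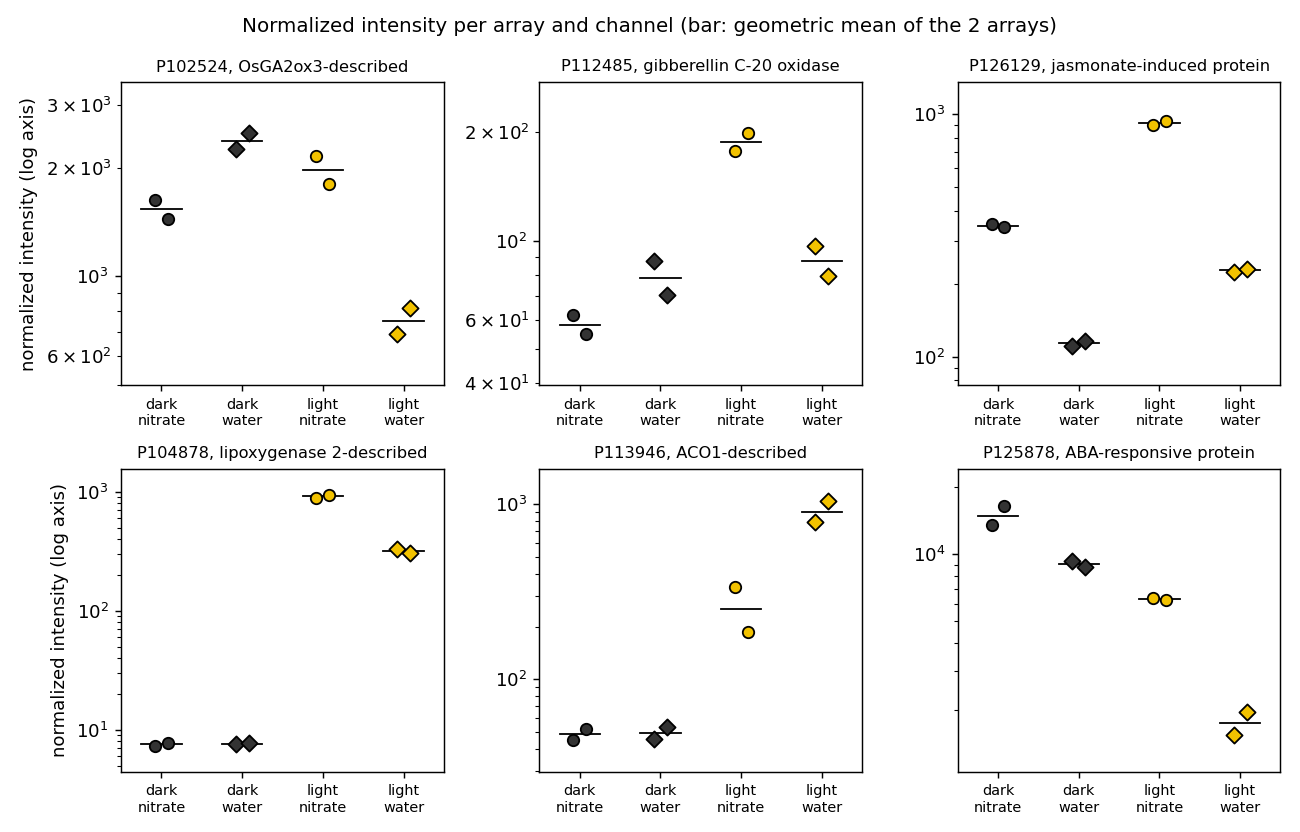
Normalized intensity (log axis) of 6 members in each channel of each array, dark on the left and light on the right of each panel, with circles for nitrate, diamonds for water and bars for the geometric mean of the 2 arrays. A_71_P102524 lies lower with nitrate in dark and higher with nitrate in light, and A_71_P104878 lies below 10 in all 4 dark channels and above 300 in all light channels.

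Of the ABA members, 0 of 10 were called in dark and 2 of 10 rose in light, against 3.53% and 2.28% of all probes. Both members that rose had ratios above 0 on all 4 arrays. A_71_P125878 (AK063578), an ABA-responsive protein described from barley, had 0.53 and 0.91 in dark and 2.05 and 1.67 in light. It rose 3.63-fold in light, at 1.86 ± 0.18 (adjusted p = 0.0645), and its difference of -1.14 ± 0.25 was called (adjusted p = 0.223), but not without light replicate 1 or dark replicate 1 (-0.95 each). A_71_P103401 (AK070998), described as ABFA of wheat, a factor that binds ABA response elements in promoters, had 0.63 and 0.84 in dark and 1.54 and 1.80 in light. It rose 3.18-fold in light, at 1.67 ± 0.15 (adjusted p = 0.0625). Its normalized intensities were between 36.4 and 127, and under the normexp background correction its light ratio was 0.54 and not called. The difference of -0.93 was not called.

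The other ABA members were not called. Of the 3 described as Asr1, an ABA- and stress-inducible protein, A_71_P124525 (AK064892) had 2.16 and 1.84 in dark but -2.01 and 2.33 in light. Its light arrays disagreed in sign, the shared SE was 1.06, and the dark ratio of 2.00 had an adjusted p of 0.45. A wider list of 20 probes for genes often tied to ABA was also counted, with 15 probes for protein phosphatases 2C, of which a subset are negative regulators of ABA signalling, 3 for dehydrins and 2 for late embryogenesis abundant proteins, both groups being proteins of drying cells. Of these, 3 rose and 0 fell in dark, against 1.81% and 1.72% of all probes. In light 7 rose and 0 fell, against 2.28% and 1.46% of all probes. The 7 were 3 phosphatases, all 3 dehydrins and 1 late embryogenesis abundant protein. The phosphatase A_71_P122133 (AK063334), described as At3g11410 of Arabidopsis, had 1.33 and 0.96 in dark and 1.86 and 2.11 in light. None of the 20 passed after adjustment. A_71_P117228 (AK071637), a phosphatase with -0.44 and -0.05 in dark and 1.56 and 1.11 in light, was the only 1 called for the difference. That is 5% of the 20, against 6.51% of all probes.

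In jasmonate synthesis, 0 of 17 members were called in dark, against 3.53% of all probes. In light 2 rose and 2 fell, against 2.28% and 1.46% of all probes. The smallest adjusted p was that of A_71_P104878 (AK071915), described as lipoxygenase 2 of barley, a member of the enzyme class that starts jasmonate synthesis. It had -0.05 and 0.00 in dark and 1.42 and 1.63 in light, and rose 2.87-fold in light, at 1.52 ± 0.14 (adjusted p = 0.0625). In dark it was not well above background in any channel, so the called difference of -1.55 says nothing of a nitrate response there. A_71_P126555 (AK066737), the rice lipoxygenase rci-1, had 1.44 and 0.62 in light, where the water signal was at background on both arrays and the nitrate signal above it on 1 of 2. Its fitted rise in light was 2.04-fold (adjusted p = 0.165), and in dark it was at background, so that its called difference of -1.06 is no measure either.

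The 2 members that fell in light were dim there, and their nitrate signal passed the background flag on 1 of 2 arrays. A_71_P108084 (AK103565), described as a maize lipoxygenase, had 0.10 and 0.71 in dark, at background in every channel, and -1.15 and -1.37 in light, a fall of 2.39-fold at -1.26 ± 0.20 (adjusted p = 0.104). A_71_P105848 (AK105964), described as allene oxide synthase of wild tobacco, had 0.45 and 0.01 in dark and -0.65 and -2.25 in light. Its light ratio of -1.45 ± 0.42 (adjusted p = 0.23) was not called without light replicate 2 (-0.65), and was -2.25 without light replicate 1. Its difference of 1.68 ± 0.59 was lost without light replicate 2 (0.88), dark replicate 1 (1.47) or dark replicate 2 (1.90). Under the normexp background correction the light ratios were -0.53 for A_71_P108084 and -0.38 for A_71_P105848, their differences were 0.57 each, and none was called.

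Further along the path, A_71_P108736 (AK071443), the rice allene oxide cyclase, had -0.77 and -0.67 in dark and 0.62 and 0.11 in light. The conditions lay on opposite sides of 0, and the difference of -1.09 ± 0.25 was called (adjusted p = 0.228), but not without light replicate 1 (-0.83) or dark replicate 1 (-1.04), nor under the normexp background correction (-0.56). The 3 members for 12-oxophytodienoate reductase had fitted ratios between -0.22 and 0.06 in dark and between -0.11 and 0.14 in light. Among the rice lipoxygenases, A_71_P121410 (AK066825) had -0.27 and -0.18 in dark and -0.63 and -0.84 in light, which fell short of the fold threshold.

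The jasmonate response group held the member with the smallest adjusted p in either condition. A_71_P126129 (AK066682), described as a jasmonate-induced protein of barley, had 1.67 and 1.56 in dark and 2.01 and 2.02 in light. All 4 arrays were high. It rose 3.06-fold in dark, at 1.61 ± 0.13 (adjusted p = 0.0566), and 4.05-fold in light, at 2.02 ± 0.13 (adjusted p = 0.0395), and was the only member to pass adjustment and the only one called in dark that was above background there. The difference of -0.40 ± 0.18 was not called. Its dark call was lost under the normexp background correction (0.84). Of 4 further members with this description, A_71_P113728 (AK107844) had 0.76 and 0.41 in dark and -0.04 and 0.39 in light. A_71_P113029 (AK067477) was called for the difference (-1.17 ± 0.23), but it was not above background on both arrays of either condition.

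A_71_P116683 (AK068748), described as JMT, the Arabidopsis enzyme that methylates jasmonic acid, had -0.42 and -0.93 in dark and -1.20 and -0.91 in light. It was below 0 on all 4 arrays. It fell in light at -1.06 ± 0.19 (adjusted p = 0.118), a call lost without light replicate 1 (-0.91) and under the normexp background correction (-0.90), and its dark ratio of -0.67 ± 0.19 was not called. The other member with this description, A_71_P117608 (AK067321), had -0.76 and -0.36 in dark and -1.07 and -0.12 in light, and was called in neither.

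Etiolated and light-grown leaves also differed in these genes without nitrate. Here the water channels were compared by a separate-channel analysis in limma. Each array held 1 kind of leaf, so that array and growth regime cannot be told apart beyond the 2 arrays each. Of 69 members, 17 were higher and 18 lower in etiolated leaves, or 50.7%, against 29% of all probes, and 33 passed after adjustment, against 28.1% of all probes. On the nitrate channels 13 were higher and 21 lower, or 49.3%, against 31.4% of all probes, and 33 passed after adjustment, against 30.5% of all probes. The 13 and the 21 stand against 15.4% and 15.9% of all probes. In all, 30 members were called in both with the same direction, which is 85.7% of the calls on water and 88.2% of those on nitrate. The 2 comparisons share the arrays. The same overlap over all probes was not computed, so it is not shown to be particular to the members. The median absolute difference on water was 1.03 over the members and 0.58 over all probes.

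By role, the counts were as follows. In gibberellin metabolism 4 of 10 were higher in etiolated leaves and 0 lower, and in gibberellin response 4 of 6 and 0. In ethylene synthesis 3 of 10 were higher and 4 lower, in ethylene perception and signalling 1 of 9 each, and among ABA members 2 of 10 each. In jasmonate synthesis 3 of 17 were higher and 7 lower, and in jasmonate response 0 of 7 were higher and 4 lower. Against this, 14.6% of all probes were higher and 14.4% lower.

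**Figure D4:**
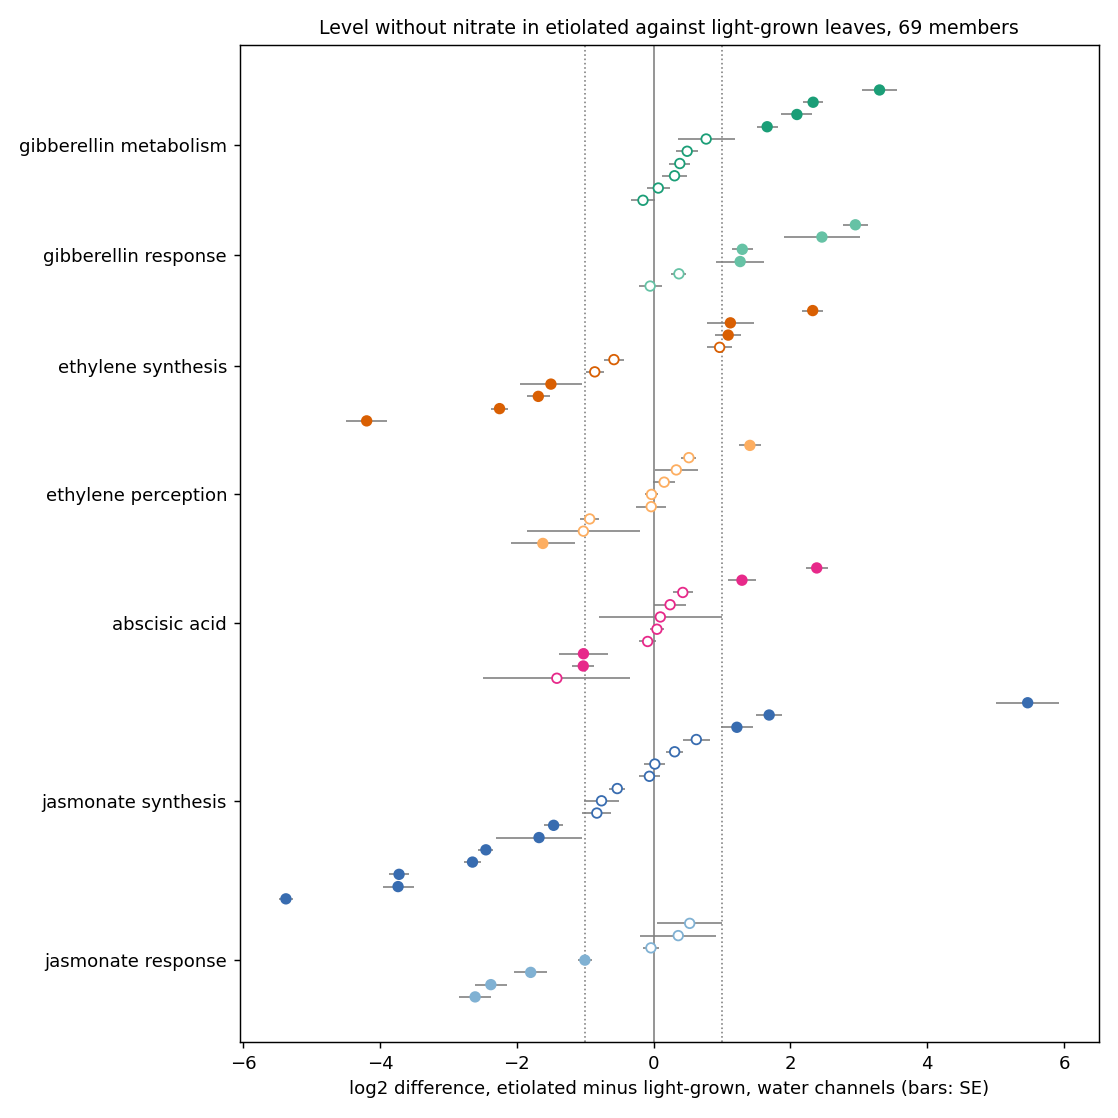
Log2 difference between etiolated and light-grown leaves on the water channels for the 69 members fitted, by role, with SE bars and filled points for members called. All 8 called gibberellin members lie to the right, and all 4 called jasmonate response members lie to the left.

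Among gibberellin enzymes, the GA 3-beta-hydroxylase member A_71_P107279 gave 513 and 552 on water in etiolated leaves and 48.1 and 60.4 in light-grown leaves. It was 9.86-fold higher in etiolated leaves (adjusted p = 0.000211). Of the 4 members described as OsGA2ox3, 3 were higher in etiolated leaves, A_71_P100247 by 5.03-fold, A_71_P114160 by 4.27-fold and A_71_P102524 by 3.16-fold. The 5 20-oxidases were not called, with differences between -0.16 and 0.77 on the log2 scale. In the response group CIGR1, A_71_P117925 (AK069266), gave 4413 and 4639 in etiolated leaves and 495 and 694 in light-grown leaves, and was 7.72-fold higher (adjusted p = 9.02e-05). A_71_P117676 (AK073470), one of the GIGR2 members, was 2.46-fold higher. The gip3 member A_71_P122169 (AK059073) was not well above background in light-grown leaves. By the fitted value it was 5.50-fold higher in etiolated leaves (adjusted p = 0.0132), though its difference was 0.62 and not called under the normexp background correction.

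In ethylene synthesis, the ACC oxidase A_71_P103038 gave 40107 and 35006 in etiolated leaves and 7180 and 7789 in light-grown leaves, 5.01-fold higher. The sorghum-like ACO1 member A_71_P113946 gave 45.9 and 53.2 in etiolated leaves and 785 and 1042 in light-grown leaves, 18.3-fold lower (adjusted p = 0.00016). In neither member did the 2 kinds of leaf overlap, but both were named for large differences in this same comparison. The level from which A_71_P113946 fell with nitrate in light was not reached in etiolated leaves. A_71_P124808, with the same description and at background in etiolated leaves, was 2.83-fold lower by the fitted value (adjusted p = 0.0394). This call was lost without light replicate 1 (-1.58) or light replicate 2 (-1.41) and under the normexp background correction (-0.42).

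Of the ACC synthases, A_71_P110252 (AK071011) was higher by 1.09 ± 0.19, though not without dark replicate 2 (0.93), and A_71_P115533 (AK065212) and A_71_P111438 (AK064250) were lower by 4.76-fold and 3.22-fold. The bright ACC oxidase A_71_P121738 was higher by 1.12 ± 0.34, a call lost without light replicate 1 (0.61), dark replicate 1 (1.09) or dark replicate 2 (1.06), and it was 1.82 without light replicate 2. Of the signalling members, OsEIL2, A_71_P117844 (AK060806), was 2.65-fold higher, and the receptor-like member A_71_P104129 (AK111520) had a difference of -1.62 ± 0.47, lost without light replicate 1 (-1.40) or light replicate 2 (-1.82). The brightest signalling member, an OsEIL1 probe, A_71_P110342 (AK060826), differed by 0.15 ± 0.16.

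Among ABA members, A_71_P125878 gave 9338 and 8803 on water in etiolated leaves and 1540 and 1959 in light-grown leaves, and was 5.22-fold higher (adjusted p = 0.000138). The same member rose with nitrate in light-grown leaves, where its intensities with nitrate were 6374 and 6223. The chilling-regulated A_71_P115182 (AK066255) was 2.45-fold higher. A_71_P103569 (AK103729), an ABA-activated gene described from alfalfa, and A_71_P101901 (AK066307), a chloroplast transcript described from a water fern, both had differences of -1.03. The first call was lost without dark replicate 2 (-0.90) and with channels scaled to the 75th percentile (-0.98). The second was lost without light replicate 1 (-0.75), dark replicate 1 (-1.13) or dark replicate 2 (-0.78), and its adjusted p was 0.065. It was also lost under normexp (-0.95), 75th-percentile scaling (-0.50) and quantile normalization (-0.74).

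Jasmonate synthesis held the widest differences in both directions. The lipoxygenase A_71_P104878 gave 7.62 and 7.72 on water in etiolated leaves, at background, and 333 and 304 in light-grown leaves. By the fitted value it was 41.5-fold lower in etiolated leaves (adjusted p = 1.7e-05). The maize-like lipoxygenase A_71_P108084 was 13.3-fold lower and A_71_P105846 (AK107161), described as allene oxide synthase of flax, 13.2-fold lower, both also at background in etiolated leaves. The first was -0.95 and not called under the normexp background correction. The rice lipoxygenase L-2, A_71_P108957 (AK073529), was 5.47-fold lower. The rice allene oxide synthase A_71_P108798 (AK066138) was 6.27-fold lower. Against these, A_71_P105848, another member described as allene oxide synthase, gave 1758 and 1688 in etiolated leaves and 37.4 and 40.6 in light-grown leaves, 44.2-fold higher (adjusted p = 0.000299). A_71_P108761 (AK068620), an allene oxide synthase described from potato, was 3.22-fold higher, and the bright barley-like LoxB member A_71_P108085 (AK071121), saturated in 2 channels, was higher by 1.22 ± 0.23, a call lost without light replicate 1 (0.90) or dark replicate 2 (0.97). Members described by the same enzyme name therefore lay on opposite sides. Of 5 allene oxide synthase members 2 were higher and 2 lower, and of 8 lipoxygenases 1 was higher and 4 lower.

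In jasmonate response, the JMT members A_71_P117608 and A_71_P116683 were 6.10-fold and 3.47-fold lower in etiolated leaves on water. A_71_P117608 gave 185 and 174 in etiolated leaves and 1329 and 900.1 in light-grown leaves. The jasmonate-induced member A_71_P113728 was 5.20-fold lower, or -0.98 and not called under the normexp background correction. A_71_P126129 gave 110 and 116 in etiolated leaves and 224 and 231 in light-grown leaves, a difference of -1.0 ± 0.10 (adjusted p = 0.00052) that lay at the threshold and fell below it without light replicate 2 (-0.97) or dark replicate 1 (-0.98), under normexp (-0.36) and with channels scaled to the 75th percentile (-0.93).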

How the data were processed

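The authors deposited, per array, scanner output holding the intensity of both channels of every spot and their log10 ratio, from Agilent Feature Extraction (9.5.3.1 per the file headers, another version in the methods), with background subtracted and dyes balanced. They also deposited a table of normalized ratios. Its log2 values had medians of 0.00 and 0.01 on dark replicates 1 and 2 and of -0.01 and -0.02 on light replicates 1 and 2, lacked 144 to 3004 probes per array and correlated with the processed ratios of nitrate over water at 0.981 to 0.994, so its scale, centring and direction follow from this match. Nitrate was in Cy5 in replicate 1 and Cy3 in replicate 2 of each condition.

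From the processed signals, log2 ratios were computed, normalized by loess within arrays (span 0.3, 4 iterations), averaged over the 2 spots of a probe and fitted with limma 3.58.1 in R 4.3.3, with a coefficient for each condition over the 4 arrays and the contrast dark minus light. Control spots and outlier spots (7 to 60 per array) were left out and saturated spots kept. Channels were compared after Aquantile normalization with statmod 1.5.0, and these are the normalized intensities given. The correlation of the channels within spots was -0.05. Where all arrays of 1 side were not well above background, the fold sets the brighter mean against the larger of the dim probe's own signal and the lowest signal that passed the flag. In the folds given the probe's own signal was the larger, so they are fitted folds and not lower bounds. p-values were adjusted over all probes. They rest on 2 arrays a condition, whose number limits the precision. Scripts were tested on simulated data. Between 75.5% and 79% of spots were well above background per channel and array, and the median red signal was 1263 on light replicate 2 and 267 to 445 on the others. Figures were drawn with matplotlib 3.10.9.

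The members and lists were chosen with earlier results of these data known. Members named are those called for nitrate or the difference and above background, the 3 largest changes each way per role among water calls, and the brightest of each role. Other members named were chosen after their values were seen, to complete a description or role. The lists for photosystem I and for further jasmonate genes matched 0 probes, and 1 further brassinosteroid probe was called in no comparison. The words for the small subunit of rubisco matched 2 probes, of which 1 is described as a methyltransferase of that subunit, and 0 were called between etiolated and light-grown leaves. Members that match ABA only inside other words were left out. None of the 70 accessions was in the gene table used here, which gave 0 matches, so no gene position or sequence is given. Alternatives were normexp (offset 50), Feature Extraction's log ratio, the deposited ratios, median centring, dim probes left out, outlier spots kept, a replicate block, conditions fitted alone, no moderation, adjusted p, scaling to the 75th percentile, quantile normalization and leaving out each array.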

Additional observations from a re-analysis of the deposited data

Results flagged for a closer look

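The 15 results below were picked out because the nitrate response differed between etiolated and light-grown leaves by a test of the difference itself, dark minus light in limma, at the study's fold and unadjusted p thresholds. None passed after adjustment, and 6.51% of all probes met the same thresholds. Each value is the log2 difference.

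In gibberellin metabolism the differences were -2.02 for A_71_P102524, -1.53 for A_71_P112485, -1.26 for A_71_P114726, -1.21 for A_71_P113264 and -1.19 for A_71_P113263. In ethylene synthesis they were 1.82 for A_71_P113946 and -1.12 for A_71_P121738, and in ethylene perception -1.04 for A_71_P113398. The ABA-responsive A_71_P125878 had -1.14. In jasmonate synthesis they were 1.68 for A_71_P105848, 1.66 for A_71_P108084, -1.55 for A_71_P104878, -1.09 for A_71_P108736 and -1.06 for A_71_P126555, and in jasmonate response -1.17 for A_71_P113029. A_71_P104878 and A_71_P108084 were not above background in dark. A_71_P126555 and A_71_P113029 were not above it on both arrays of either condition. These 4 therefore do not compare 2 measured responses.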

How the results depend on the processing

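With 2 arrays a condition, no call for the difference passed adjustment. Members called in dark, 2 in the main analysis, numbered 0 under normexp, 1 with the log ratio of Feature Extraction, 1 without moderation and 0 by adjusted p. In light, 13 became 5 under normexp and 1 by adjusted p. For the difference, 15 became 6 under normexp, 7 without moderation and 0 by adjusted p. All probes called fell likewise under normexp, to 222 in dark, 271 in light and 501 for the difference, and without moderation to 494, 565 and 693. Reading ABA as letters inside any word, an alternative chosen after seeing the data, gave 22 (6.57%) in dark, 28 (8.36%) in light, 38 (11.3%) for the difference, 117 (34.9%) on the water channels and 124 (37%) on the nitrate channels. Leaving out 1 array gave 2 to 4 in dark, 12 to 16 in light, 10 to 16 for the difference, 30 to 34 on water and 30 to 36 on nitrate. With replicate number as a block, counts stayed at 2, 13 and 15. That number is also the dye orientation, and replicate deviations in dark and light correlated at 0.12 over all probes and -0.01 over members, so it was not taken as a pairing. Of 634 pairs of a called value of the 38 named members and an alternative, 525 kept the call, 109 lost it and 0 reversed. Some of these pairs could not reverse. Adjusted p, no moderation and conditions fitted alone do not change a fitted ratio of nitrate over water. Nor does leaving out an array of the other condition change a light or dark ratio. The causes were not tested.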
